A study of Mus musculus with 9 samples.

Results

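The genes described here encode the subunits of the mitochondrial respiratory chain complexes I, III and IV and of ATP synthase, complex V. They were taken from the count table by name (symbols that begin with Nduf followed by a, b, c, s or v and a number, Uqcr, Cox4 to Cox8, Atp5, the mitochondrial prefixes mt-Nd, mt-Co, mt-Cytb and mt-Atp, and Cyc1), which gave 98 of the 21959 rows. Of these, 85 lie in the nuclear genome and 13 in the mitochondrial genome. Complex I had 44 members, complex III 10, complex IV 24 and complex V 20. Ndufa4 and its relative Ndufa4l2 carry complex I names but were counted with complex IV, where the Ndufa4 protein is known to sit. Complex II, whose genes have other names, was counted separately. The name rule also took a pseudogene, Cox5b-ps, and a retrogene, Ndufb11b, and took Atp5o in both of its rows.

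Oxidative phosphorylation makes most of the ATP of cells that burn fatty acids, and the colonocyte, which oxidises the butyrate made by gut bacteria, is a standard example. Complex I takes electrons from NADH and complex III passes them to cytochrome c. Complex IV hands them to oxygen, and complex V uses the resulting proton gradient to make ATP. Nearly all subunits are made from nuclear genes and imported, whereas a small core of membrane subunits is made from mitochondrial DNA, so a working complex needs products of both genomes.

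Transcripts were measured by poly-A RNA sequencing of colon from 3 groups of 3 wild-type mice. The Blank mice were untreated. The Model mice were given dextran sulfate sodium (DSS), a polymer that injures the colon lining and causes colitis. The CDs mice were given DSS and carbon dots, which are nanometre-sized carbon particles, made from lotus node charcoal. There was no group with carbon dots and no DSS. No source used here gives the strain, age or sex of the mice, the dosing or the time of sampling.

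The libraries held 13868864 to 19940300 counted reads. All 14 epithelial markers examined, among them the intestinal transcription factor Cdx2 and the cadherin Cdh17, had reads in every library. Markers of pancreatic acinar cells summed to 8663 CPM (reads scaled to library size) in Model 1, 72616 in Model 3 and 348 in CDs 1, against 26.4 to 228 in the other 6 libraries. Pbsn, a gene of the prostate, was at 895 CPM in Blank 2 and 113 in Blank 3 and at most 0.24 elsewhere. The 5 prostate markers in the table, Pbsn among them, summed to 1598 CPM in Blank 2, 288 in Blank 3 and 83.5 to 287 elsewhere. Blank 3 thus stood apart by Pbsn and not by this sum. Of the 2 prostate markers tested, 1 was called lower and 1 higher in Model against Blank. Results are therefore also given without Model 1, Model 3 and CDs 1, and without Blank 2 and Blank 3.

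Of the 98 members, 92 had enough reads to be tested. In the Blank libraries the nuclear members with the highest level per transcript length were Atp5a1 and Atp5b, the alpha and beta subunits of the catalytic head of ATP synthase, at 386 ± 14 and 335 ± 8.13 FPKM (SD, n = 3). Cox6b1 and Cox6a1, small subunits of complex IV, followed at 313 ± 24.8 and 297 ± 29 FPKM. The mitochondrially encoded mt-Co1, the catalytic subunit of complex IV, stood far above all of them at 22650 ± 811 FPKM, with mt-Cytb at 9461 ± 456 FPKM. The 6 members that were not tested were near or at 0. Cox7b2 and Cox8c, known as testis isoforms, and the second Atp5o row had no read in any library, which allows up to 0.142 to 0.221 CPM per library (3 reads, counting error only, which leaves out reads that match several places). Ndufb11b had at most 1 read in a library. Cox6a2 and Cox8b, known as heart and skeletal muscle isoforms, had at most 7 and 3 reads in a library.

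Promoters of the nuclear members were searched for the sites of 4 kinds of factor known for respiratory genes, and 4 promoters are shown, 3 with a match and 1 without. RefSeq promoter sequences (GRCm38.p6, from 250 bases before to 50 bases after the start) were found for 67 member names, with 72 promoters. They were searched on both strands for the palindrome bound by NRF1, a factor known for respiratory genes (the letters in capitals in the Cox6a1 window), for CCGGAAG (the core site of ETS factors such as GABP), AAGGTCA (the core site of nuclear receptors such as ERR alpha) and AAGATGGC (the site of YY1). The windows below run from position -250 to -41 relative to the start, 210 bases, 5′ to 3′ on the gene's strand, with a match in capitals. The Cox6a1 window (chr5:115348999-115349208, minus strand) holds the NRF1 letters, that of Uqcr11 (chr10:80406862-80407071, minus strand) the ETS letters and that of Atp5g3 (chr2:73911367-73911576, minus strand) the nuclear receptor letters as read on the other strand. The Cox7a1 window (chr7:30183921-30184130, plus strand), shown since its transcript had the lowest fold change, holds none of the 4.
Cox6a1: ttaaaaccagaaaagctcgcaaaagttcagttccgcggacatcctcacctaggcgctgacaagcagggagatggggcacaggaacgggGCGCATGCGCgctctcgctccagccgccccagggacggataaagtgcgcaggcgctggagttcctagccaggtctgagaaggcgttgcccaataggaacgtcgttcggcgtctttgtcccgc
Uqcr11: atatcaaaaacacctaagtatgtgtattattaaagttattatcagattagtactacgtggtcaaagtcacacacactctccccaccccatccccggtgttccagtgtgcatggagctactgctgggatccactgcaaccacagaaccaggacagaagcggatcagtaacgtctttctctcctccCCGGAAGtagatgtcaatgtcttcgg
Atp5g3: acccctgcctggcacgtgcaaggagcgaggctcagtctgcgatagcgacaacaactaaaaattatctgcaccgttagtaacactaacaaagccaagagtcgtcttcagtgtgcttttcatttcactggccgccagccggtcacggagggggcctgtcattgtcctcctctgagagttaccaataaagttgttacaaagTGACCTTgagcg
Cox7a1: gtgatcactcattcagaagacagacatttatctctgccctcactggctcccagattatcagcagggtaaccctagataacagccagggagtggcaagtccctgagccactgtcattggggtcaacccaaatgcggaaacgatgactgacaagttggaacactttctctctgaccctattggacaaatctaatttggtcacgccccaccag

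The NRF1 letters were in 5 member promoters (6.94%), against 0.971% of all 32851 promoters in the table and 1.76% of the 14964 promoters of tested genes. The YY1 letters were in 10 (13.9%, against 2.75% and 3.80%), the ETS letters in 15 (20.8%, against 8.86% and 15.0%) and the nuclear receptor letters in 7 (9.72%, against 4.72% and 3.34%). The NRF1 promoters were those of Atp5g2, Atp5k, Cox6a1, Ndufa11 and Uqcrc1. These matches describe letters in a window and not binding, and none of the 4 contains another, although CCGGAAG can run into AAGGTCA or AAGATGGC.

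In Model against Blank, transcripts of the respiratory chain and ATP synthase were lower across all 4 complexes and in both genomes, by modest amounts. Of the 92 tested members, 60 were called lower and 2 higher (edgeR adjusted p under 0.05 over all 14921 genes tested), and 30 were not called. Over all genes tested, 19.6% were called lower and 24.5% higher. Among genes with a mean of at least 10 CPM, 23.1% were called lower and 22% higher. The fold change of Model over Blank was below 0 on the log2 scale for 89 of 92 members, with a median of -0.59, against -0.03 over all genes. Of the 60 members called lower, 1, Cox7a1, had a log2 fold change at or below -1. The Model libraries lay wholly below the Blank libraries for 77 members and wholly above for 2, where 31% and 30% of all genes did so.

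The number of calls depended on single libraries, while the median stayed below 0. The 62 calls became 40, 34 and 35 without Blank 1, 2 or 3, 30 without Model 2 and 24 without Model 3, and 77 without Model 1. Calls over all genes also moved in these fits. From 2920 lower of 14921 genes, they became 1842, 1770 and 1885 without Blank 1, 2 or 3. They became 1568 of 15091 without Model 2, 1478 of 15098 without Model 3 and 3316 of 15151 without Model 1. The median log2 fold change lay between -0.75 and -0.49 across these fits. Without the 3 libraries with pancreatic transcripts, which leaves Model 2 as the only Model library, the median was -0.73. Without Blank 2 and Blank 3, the libraries with high Pbsn, Blank 1 was the only untreated library left and the median was -0.51. A set of 22 members was called lower in the full fit and in each of the 9 fits without 1 library. Among them were the core subunits Ndufs1, Ndufs7, Ndufs8 and Ndufv1 of complex I, Uqcrc1, Uqcrc2, Uqcrfs1, Cyc1 and Uqcr11 of complex III, Atp5a1, Atp5b, Atp5c1, Atp5g1, Atp5h, Atp5j2 and Atp5pb of complex V, the complex I accessory subunits Ndufa9, Ndufa10, Ndufa12 and Ndufb3, and Cox7a1.

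**Figure D1:**
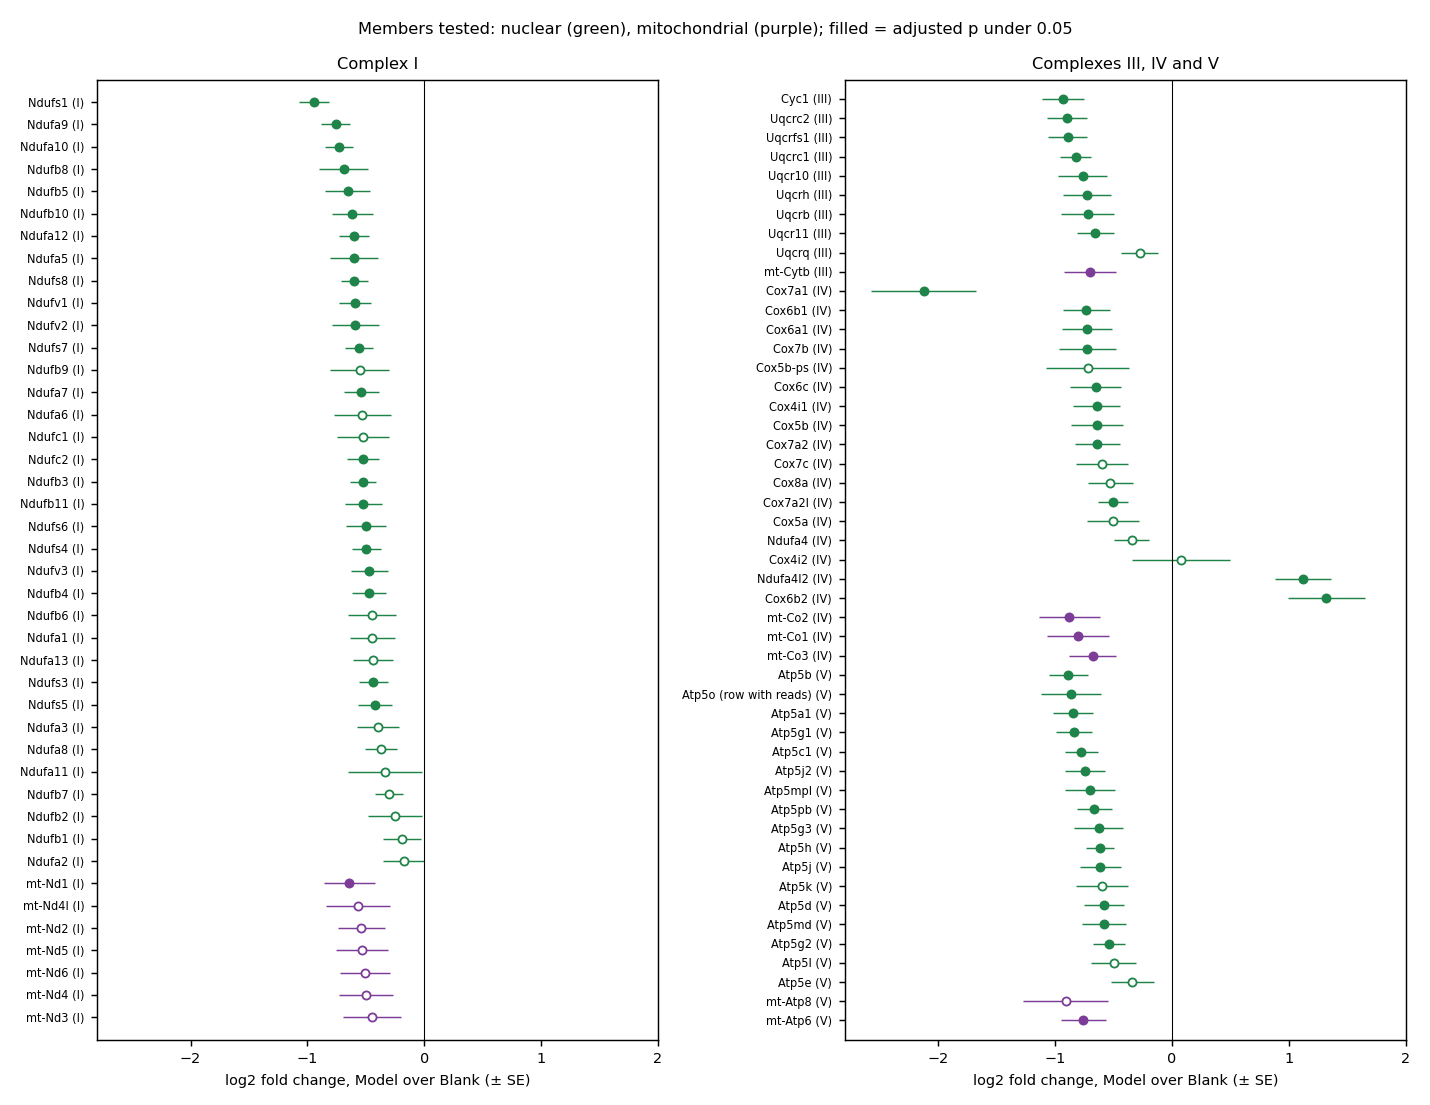
Log2 fold change of Model over Blank (x axis, bars ± SE) for the tested members other than 1 not reported by name, complex I on the left and complexes III, IV and V on the right, with nuclear members in green and mitochondrially encoded members in purple and filled points called at an adjusted p under 0.05. Nearly all points lie below 0, Cox7a1 lies farthest left at -2.13, and the filled points to the right of 0 are Ndufa4l2 and Cox6b2.

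Complex I, the largest of the chain, had 24 of 43 tested members called lower and none higher, with a median log2 fold change of -0.52. All 7 nuclear core subunits, which carry the flavin and the iron-sulfur clusters, were called lower (median -0.59), as were 16 of 29 nuclear accessory subunits (median -0.50). Ndufs1, the largest iron-sulfur subunit (ENSMUSG00000025968, chromosome 1, 63182755 to 63215992 in the deposited table, with no build named), was at 141, 150 and 162 CPM in Blank, 94.3, 69.6 and 71.9 in Model and 82.5, 93.4 and 95.6 in CDs. All 6 libraries from DSS-treated mice lay below all Blank libraries. Its level in Model was lower than in Blank by -0.94 ± 0.13 on the log2 scale (SE; edgeR adjusted p = 9.15e-04).

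Ndufa10 and Ndufa9 are accessory subunits. Ndufa10 was at 125, 130 and 138 CPM in Blank and 92.4, 73.3 and 71.3 in Model, with its log2 fold change at -0.73 ± 0.12 (edgeR adjusted p = 0.00183). Ndufa9 was at 85.9, 91.0 and 93.9 CPM in Blank and 63.1, 48.7 and 48.3 in Model, with its log2 fold change at -0.76 ± 0.13 (edgeR adjusted p = 0.00200). In neither did the groups overlap. Of the complex I members with the highest level per length, Ndufc2 (102 ± 2.70 FPKM in Blank and 73.6 ± 10.2 in Model, SD, n = 3) was called lower at -0.52 ± 0.14 (edgeR adjusted p = 0.0152, and 0.0656 without Model 3). Ndufa1 (120 ± 9.37 and 92.1 ± 19.4 FPKM) did not pass at -0.44 ± 0.19 (edgeR adjusted p = 0.0865, 0.0363 without Model 1 and 0.0418 without CDs 1). Among the smallest changes were those of Ndufa2, at -0.18 ± 0.18, and Ndufb1, at -0.19 ± 0.16, neither of which passed the test.

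Complex III had the largest share of called members, 9 of 10, with a median log2 fold change of -0.75. Both large core proteins, both redox subunits, 4 of 5 small subunits and mt-Cytb were called lower, and Uqcrq was not (-0.28 ± 0.16, edgeR adjusted p = 0.180). Uqcrc1, a core protein (chromosome 9, 108765701 to 108778691), was at 187, 182 and 191 CPM in Blank and 126, 95.2 and 94.0 in Model. The groups stood well apart, and the log2 fold change was -0.83 ± 0.13 (edgeR adjusted p = 0.00165). Uqcrfs1, the Rieske iron-sulfur protein, was at 215, 202 and 235 CPM in Blank and 145, 104 and 102 in Model, with its log2 fold change at -0.89 ± 0.16 (edgeR adjusted p = 0.00321).

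Cyc1, cytochrome c1, which hands electrons to cytochrome c (chromosome 15, 76227723 to 76230460), was at 133, 127 and 149 CPM in Blank, 92.8, 57.9 and 63.4 in Model and 86.8, 107 and 92.9 in CDs. Blank lay above both other groups, and the ranges of Model and CDs overlapped. The log2 fold change of Model over Blank was -0.93 ± 0.18 (edgeR adjusted p = 0.00353). The small subunits Uqcr10 and Uqcrh, which stood highest per length, fell by 0.76 and 0.73 on the log2 scale (edgeR adjusted p = 0.0187 and 0.0200). For both of these the call was lost without Blank 3, Model 2 or Model 3, with adjusted p between 0.0547 and 0.0745, and for Uqcrh also without Blank 2 (0.0585).

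Complex V had 15 of 19 tested members called lower and none higher (median log2 fold change -0.67). Of the subunits of the catalytic head, 4 of 5 were called, with the small epsilon subunit Atp5e as the exception (-0.34 ± 0.18, edgeR adjusted p = 0.161). Atp5b, the catalytic beta subunit (chromosome 10, 127919142 to 127926260), was at 1457, 1447 and 1493 CPM in Blank, 966, 688 and 723 in Model and 747, 894 and 943 in CDs. The Blank libraries differed little among themselves and lay above all others. The log2 fold change of Model over Blank was -0.89 ± 0.17 (edgeR adjusted p = 0.00352).

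Atp5a1, the alpha subunit, was at 1265, 1207 and 1277 CPM in Blank and 851, 623 and 608 in Model, with its log2 fold change at -0.85 ± 0.17 (edgeR adjusted p = 0.00459). Atp5c1, the gamma subunit of the rotating stalk, was at 383, 397 and 396 CPM in Blank and 273, 210 and 204 in Model, with its log2 fold change at -0.78 ± 0.14 (edgeR adjusted p = 0.00327). Neither gene's groups overlapped. Subunit c, which forms the rotor ring in the membrane, is made from 3 genes that encode the same mature protein, and all 3 were called lower. Atp5g1 was at 100, 105 and 116 CPM in Blank and 70.9, 50.3 and 58.2 in Model (-0.84 ± 0.15, edgeR adjusted p = 0.00311). The more abundant Atp5g3, at 240, 267 and 290 CPM in Blank and 229, 153 and 133 in Model, stood at -0.63 ± 0.21 (edgeR adjusted p = 0.0375). Its call was lost in 5 of the fits without 1 library, those without any 1 of the Blank libraries, Model 2 or Model 3, with adjusted p from 0.0582 to 0.124. Atp5g2 stood at -0.54 ± 0.14 (edgeR adjusted p = 0.0133, and 0.0590 without Model 3).

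Complex IV was the only complex of the 4 with calls in both directions, 12 lower and 2 higher of 20 tested. Its mitochondrially encoded members, mt-Co1, mt-Co2 and mt-Co3, were all called lower, and of the nuclear members 9 of 17 were lower. Several nuclear subunits of complex IV exist as pairs, 1 form found in most tissues and 1 restricted to muscle, lung, testis or oxygen-poor cells. Of 7 forms found in most tissues, 5 were called lower in Model. Cox6b1 was at 212, 230 and 245 CPM in Blank and 174, 128 and 111 in Model (-0.73 ± 0.20, edgeR adjusted p = 0.0173). Cox6a1 stood at -0.73 ± 0.21 (edgeR adjusted p = 0.0242), Cox7a2 at -0.64 ± 0.19 (0.0253), Cox4i1 at -0.65 ± 0.20 (0.0313) and Cox7b at -0.73 ± 0.24 (0.0375). These 5 calls were lost in 3 to 5 of the 9 fits without 1 library, in each case without Model 2 and without Model 3, with adjusted p from 0.0505 to 0.127. Cox8a (-0.53 ± 0.19, edgeR adjusted p = 0.0528) missed the threshold, with 0.0156 without CDs 1, 0.0234 without Model 1 and 0.0409 without CDs 2. Ndufa4 was not called (-0.35 ± 0.15, adjusted p = 0.0859).

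The restricted forms went in different directions. Cox7a1, the heart and skeletal muscle form (ENSMUSG00000074218, chromosome 7, 29883569 to 29885503), was at 9.26, 14.2 and 15.4 CPM in Blank, 4.43, 2.94 and 1.54 in Model and 2.43, 6.34 and 6.10 in CDs. Every library from a DSS-treated mouse lay below every Blank library. The log2 fold change of Model over Blank was -2.13 ± 0.45 (edgeR adjusted p = 0.00566), the lowest of all members. Of the skeletal muscle markers, 1 (Tnnt3) was called higher and 1 (Myh2) lower of 7 tested, with a summed level of 8.42 to 12.7 CPM in Blank, 8.40 to 22.1 in Model and 12.4 to 32.1 in CDs, and Myh4 had no read. Of 4 cardiac muscle markers tested, 2 (Ryr2 and Tnni3) were called higher. The list summed to 8.29 to 10.3 CPM in Blank, 26.1 to 32.5 in Model and 21.2 to 25.5 in CDs. Over all genes, 24.5% were called higher in Model and 19.6% lower. None of 8 smooth muscle markers was called in Model against Blank (edgeR adjusted p of 0.266 or more), with a summed level of 3111 to 4426 CPM in Blank and 2911 to 4393 in Model. The part of muscle cells in the result was not tested.

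Ndufa4l2, a relative of Ndufa4 known for its induction at low oxygen (ENSMUSG00000040280, chromosome 10, 127350836 to 127353023), was at 2.31, 1.92 and 2.51 CPM in Blank, 4.21, 5.74 and 4.69 in Model and 4.03, 6.22 and 4.48 in CDs. All 6 libraries from DSS-treated mice lay above Blank, and those of Model and CDs overlapped. The log2 fold change of Model over Blank was 1.12 ± 0.24 (edgeR adjusted p = 0.00629). Ndufa4l2 is also a marker of pericytes, the cells that wrap small vessels. Of 9 pericyte markers, 7 were called higher in Model, Ndufa4l2 itself among them, beside 24.5% of all genes. The 9 markers summed to 386 to 524 CPM in Blank, 959 to 1579 in Model and 849 to 1035 in CDs. The part of pericytes in the result was not tested. In bulk tissue, a change in the number of cells of a type and a change in RNA per cell cannot be told apart.

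Cox6b2, known as a testis form (ENSMUSG00000051811, chromosome 7, 4754791 to 4756093), was at 2.57, 3.84 and 3.47 CPM in Blank, 4.94, 11.3 and 8.25 in Model and 7.29, 7.41 and 4.71 in CDs. It was above Blank in all 6 other libraries, with a log2 fold change of Model over Blank of 1.32 ± 0.33 (edgeR adjusted p = 0.0122). Testis markers were at or near 0 in all libraries, with a summed level of at most 0.576 CPM over 8 genes, and Tnp1, Akap4 and Odf1 had no read. Cox4i2, the form of lung and of oxygen-poor cells and also a pericyte marker, was at 0.643, 1.37 and 1.40 CPM in Blank, 0.871, 1.71 and 0.939 in Model and 2.18, 3.05 and 1.69 in CDs. Blank and Model overlapped (0.08 ± 0.42, edgeR adjusted p = 0.894), and the sign of this value turned without Blank 1 (-0.20) and without Model 2 (-0.32).

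**Figure D2:**
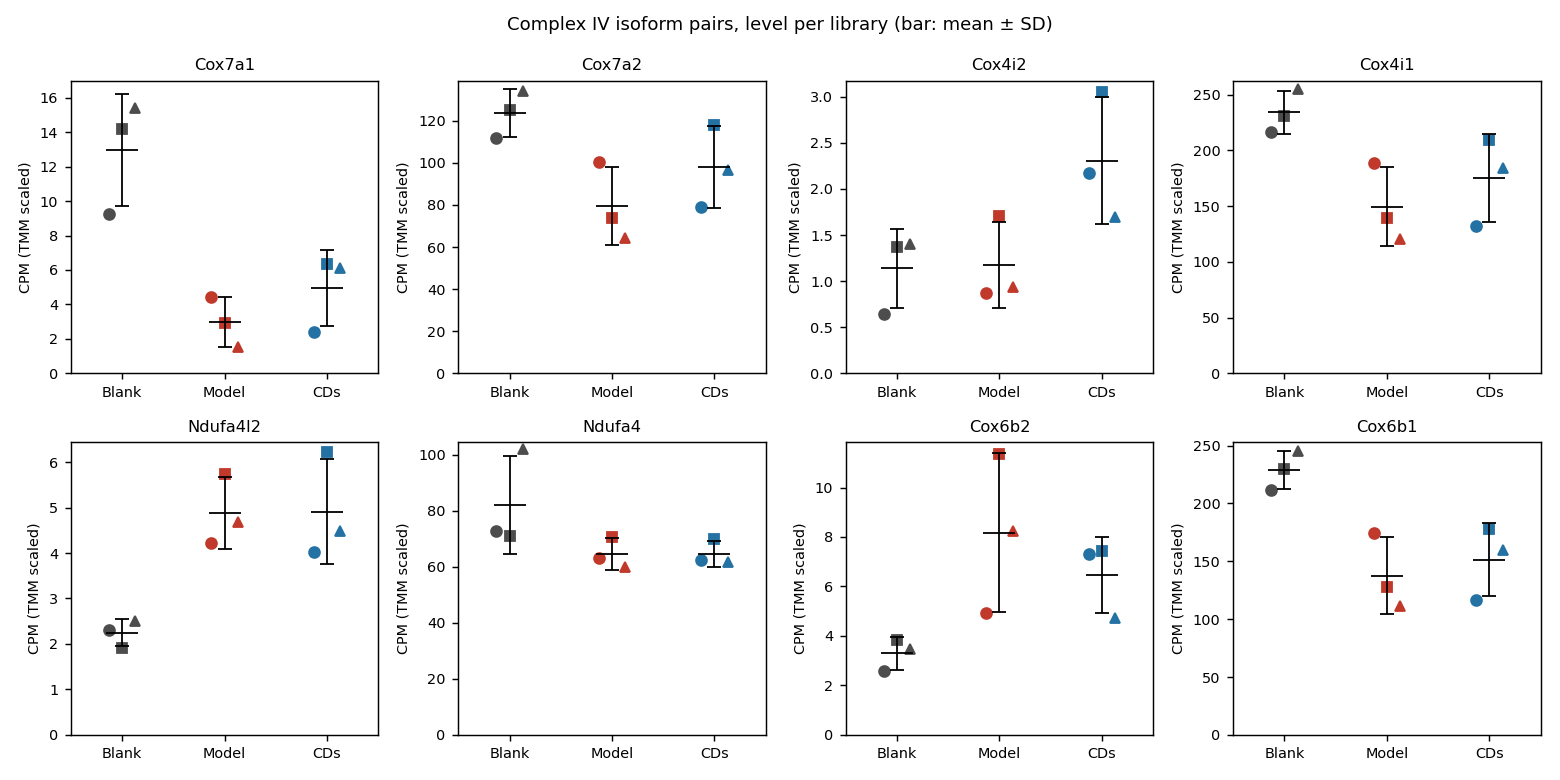
Level in CPM (y axis from 0) in each library (points, 3 per group) with mean ± SD (bars) for 4 pairs of complex IV forms, a restricted form followed by the form found in most tissues. Cox7a1 is lower in all 6 libraries from DSS-treated mice than in Blank, Ndufa4l2 and Cox6b2 are higher, and the forms found in most tissues sit below Blank on average in Model.

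Nuclear and mitochondrially encoded members had similar median fold changes in Model. Of the 79 tested nuclear members, 54 were called lower and 2 higher, with a median log2 fold change of -0.59, and of the 13 mitochondrially encoded members 6 were called lower, with a median of -0.64 and a range from -0.91 to -0.45. Within complex I, 23 of 36 nuclear members were called but 1 of 7 mitochondrial members, mt-Nd1, with medians of -0.52 and -0.53. The mitochondrial calls were less stable: their number was 0 without Model 2 or without Model 3, 1 to 3 without any 1 of the Blank libraries and 11 without CDs 1. When mitochondrially encoded genes were left out of the library sizes and the test, the nuclear counts were again 54 lower and 2 higher.

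The 13 mitochondrially encoded members summed to 68657, 69275 and 67534 CPM in Blank, 49827, 36091 and 39576 in Model and 32108, 57600 and 54891 in CDs. The 85 nuclear members summed to 10496, 10677 and 11272 CPM in Blank, 8111, 6177 and 5763 in Model and 6220, 8493 and 7806 in CDs. For both sums Blank lay above every other library, and Model and CDs overlapped, with CDs 1 at the bottom for the mitochondrial sum. The ratio of the mitochondrial to the nuclear sum was 6.34 ± 0.304 in Blank, 6.28 ± 0.526 in Model and 6.33 ± 1.02 in CDs (SD, n = 3). The ratios of the 3 groups overlapped, and the lowest was 5.16, in CDs 1. As a share of all counted reads, the mitochondrially encoded members took 6.60% to 6.67% in Blank, 3.81% to 4.93% in Model and 3.48% to 5.80% in CDs.

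**Figure D3:**
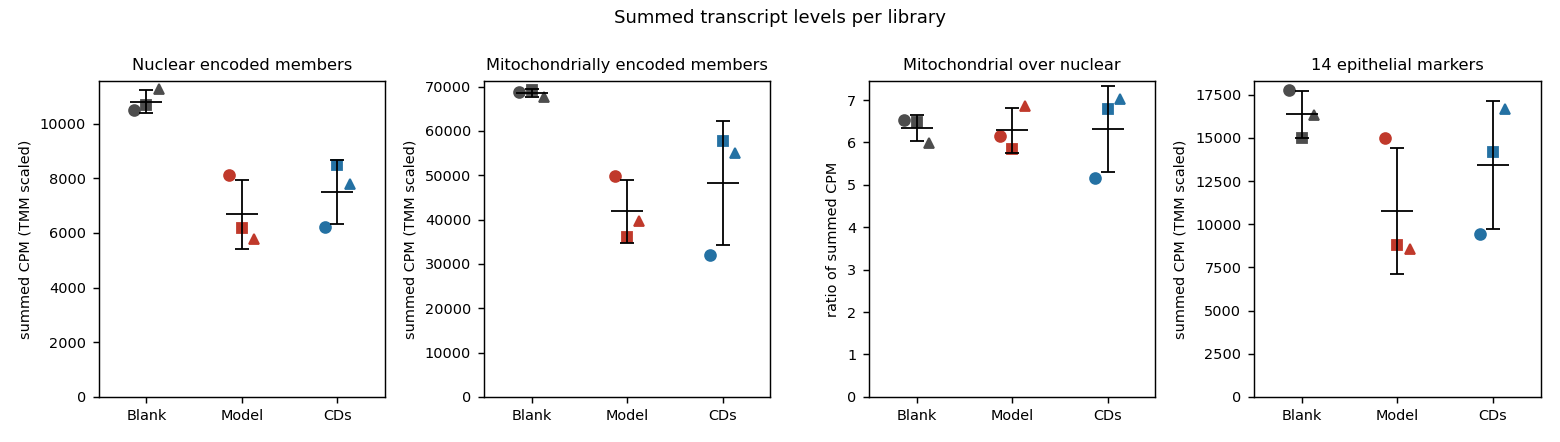
Summed CPM of the 85 nuclear and the 13 mitochondrially encoded members, the ratio of the second to the first, and summed CPM of 14 epithelial markers (y axes from 0), with 1 point per library and mean ± SD per group. The nuclear and mitochondrial sums are highest in Blank, their ratio overlaps among the groups, and the epithelial sum of Model 1 is near that of Blank 2.

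mt-Co1 (mitochondrial genome, 5328 to 6872) was at 37715, 35549 and 35101 CPM in Blank, 25726, 17608 and 18714 in Model and 15733, 29379 and 28655 in CDs. Blank lay above all others, and CDs 1 held the lowest value. The log2 fold change of Model over Blank was -0.80 ± 0.27 (edgeR adjusted p = 0.0364). mt-Atp6, which forms part of the proton channel of ATP synthase (7927 to 8607), was at 106, 101 and 84.0 CPM in Blank and 68.6, 51.2 and 52.0 in Model (-0.76 ± 0.19, edgeR adjusted p = 0.0137). mt-Cytb, the membrane core of complex III, stood at -0.70 ± 0.23 (edgeR adjusted p = 0.0327) and mt-Co3 at -0.68 ± 0.20 (0.0251). mt-Co2 was at 212, 340 and 214 CPM in Blank, with Blank 2 far above the other Blank libraries, and 165, 113 and 138 in Model. Its log2 fold change was -0.88 ± 0.26 (edgeR adjusted p = 0.0235), and -0.61 without Blank 2 (0.0859). Each of these 5 calls was lost without Model 2 and without Model 3 (adjusted p from 0.0517 to 0.202), and those of mt-Co1 and mt-Cytb also without any 1 of the Blank libraries, that of mt-Co3 without Blank 1 or 2.

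The levels of the mitochondrial members per transcript length differed widely among themselves, although they come from long shared precursors. mt-Co1 exceeded mt-Cytb, mt-Nd1, mt-Nd2, mt-Nd4, mt-Nd5 and mt-Nd6 in FPKM by 2.13-fold to 15.4-fold over the 9 libraries. It exceeded mt-Co2 by 46.3-fold to 78.7-fold, mt-Co3 by 72.6-fold to 101-fold, mt-Atp6 by 142-fold to 184-fold, mt-Nd3 by 332-fold to 595-fold and mt-Nd4l by 767-fold to 1083-fold. These 5 are also the members whose transcript is shared almost entirely with a copy in the nuclear genome. Of all stretches of 100 bases in the transcript, 99.5% of those of mt-Co2, 99.9% of mt-Co3, 99.5% of mt-Atp6, 97.6% of mt-Nd3 and 98.5% of mt-Nd4l also occur in a transcript of another annotated gene (GENCODE M21), among them Gm28437, Gm10925 and Gm28661. For mt-Nd4 the share was 60.8% and for mt-Co1 30.8%, and for mt-Nd1, mt-Nd5, mt-Nd6 and mt-Cytb it was 0.

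No source used here says how reads that match several places were counted, so the levels of these members, and their order, are uncertain. The fold changes compare the same gene between libraries. mt-Atp8, with no shared stretch of this length, was lower still, and mt-Co1 exceeded it by 2855-fold to 4634-fold. It is short (204 bases) and overlaps mt-Atp6 by 43 bases. mt-Nd6 lies on the opposite strand from the other 12, and without strand information its reads cannot be told from reads antisense to it. Of the nuclear members in the text, the Atp5o row without reads shares 77.0% of its stretches with other genes, the Atp5o row with reads 27.9% and Atp5g2 34.7%, and they are uncertain for the same reason.

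**Figure D4:**
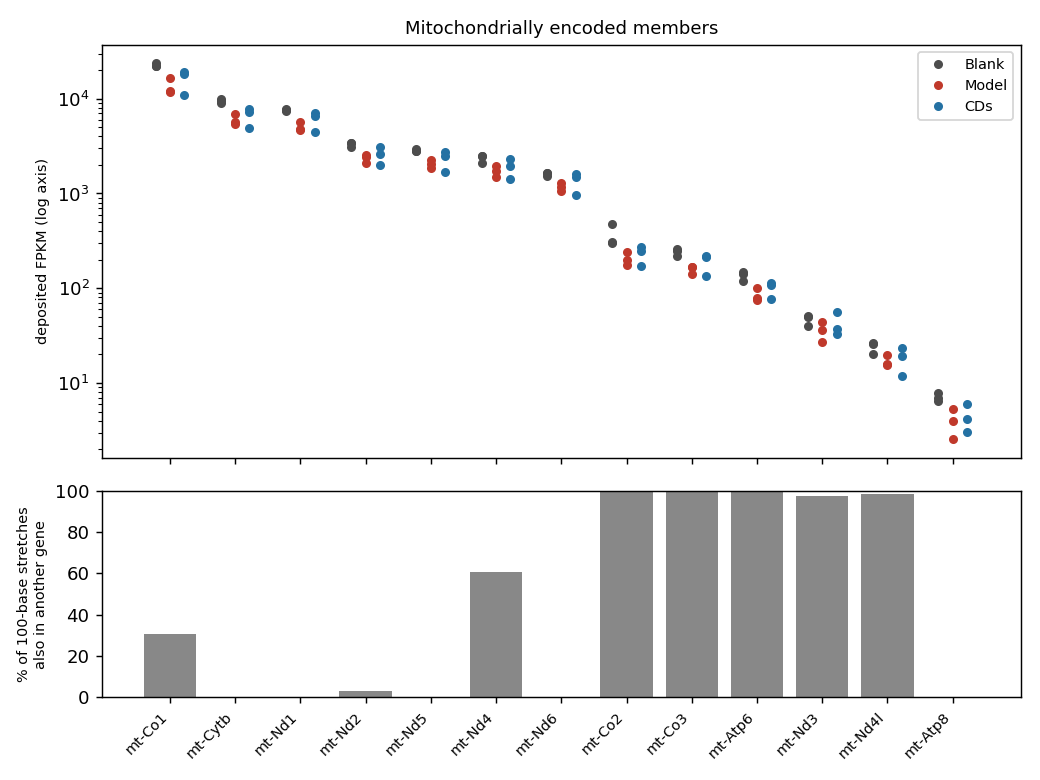
Upper panel, deposited FPKM (log axis) of the 13 mitochondrially encoded members in each library, coloured by group and ordered by the mean in Blank; lower panel, percent of their 100-base transcript stretches found in another gene. The members below mt-Nd6 in level, except mt-Atp8, are those with shares above 97%.

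Most members ordered the libraries of a group alike. In the Model group, Model 1 held the highest value for 84 of the 92 tested members, Model 3 the lowest for 67 and Model 2 for 22. In the CDs group, CDs 2 was highest for 83 and CDs 1 lowest for 82. Blank was less ordered, with Blank 3 highest for 59 and Blank 1 lowest for 62. Epithelial transcripts also differed among libraries. Their order was that of the summed nuclear members in Model but not in Blank or CDs, and that of the mitochondrial sum in no group. The 14 epithelial markers summed to 17768, 15004 and 16327 CPM in Blank, 14994, 8789 and 8579 in Model and 9407, 14206 and 16686 in CDs. Of these markers 3 (Cdx2, Krt18 and Epcam) were called lower in Model and none higher, beside 19.6% of all genes called lower. Model 1 had the highest epithelial sum of its group, Model 3 the lowest, and CDs 1 the lowest of CDs. But Blank 1, lowest for 62 members, had the highest of Blank, and CDs 3, not CDs 2, the highest of CDs. The 10 markers of absorptive colonocytes summed to 4420, 4170 and 5715 CPM in Blank and 4141, 2245 and 2327 in Model. In CDs they summed to 1827, 4166 and 6241 CPM. Of these 10, 2 were called lower in Model and none higher (median log2 fold change -1.09), beside the same 19.6%.

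The ratio of the nuclear members to the epithelial markers was 0.664 ± 0.0646 in Blank, 0.639 ± 0.0859 in Model and 0.576 ± 0.0986 in CDs (SD, n = 3). For the mitochondrially encoded members it was 4.21 ± 0.381, 4.01 ± 0.650 and 3.59 ± 0.411. Both ratios overlapped among the groups. At the same time all 12 leukocyte markers were called higher in Model, from 306 to 530 CPM in Blank to 1231 to 1802 in Model. So were all 8 fibroblast markers, from 2196 to 2536 CPM to 6103 to 12832, beside 24.5% of all genes called higher. The part of these cell types in the lower levels of the members was not tested.

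**Figure D5:**
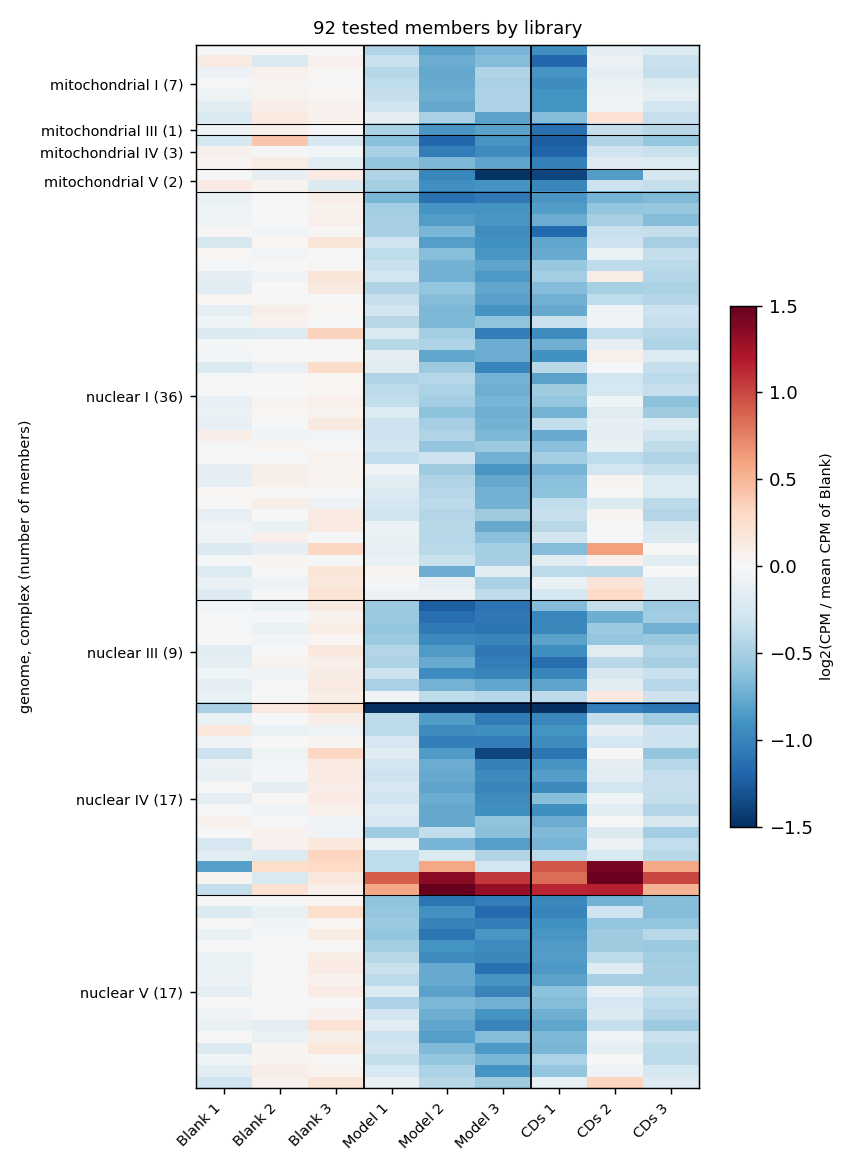
Log2 of CPM over the mean of Blank (colour, limited to ±1.5) for the 92 tested members (rows, grouped by genome and complex) in the 9 libraries (columns). Model 2, Model 3 and CDs 1 are the columns with the lowest levels, and Model 1, CDs 2 and CDs 3 lie between them and Blank.

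In CDs against Model, which asks whether carbon dots changed the response to DSS, no member was called, as was no gene at all (0% of 14921). At an unadjusted p under 0.05, 3 members were higher and none lower, beside 228 genes higher and 560 lower over all genes, and the smallest adjusted p of a member was 0.936. DESeq2 called no member and 39 genes. The fold change of CDs over Model was above 0 on the log2 scale for 89 of 92 members, with a median of 0.18, against 0.02 over all genes. The median was 0.05 without CDs 2 and 0.34 without Model 1. The CDs libraries lay wholly above Model for 1 member, where 3.22% of all genes did so, and wholly below for none, where 4.77% did. These values do not show that the groups were alike, since the SE of a member's fold change was often as large as the fold change.

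The 5 members with the smallest p were Ndufs7, Cyc1, Cox4i2, Ndufs4 and Atp5e. Ndufs7, the core subunit whose iron-sulfur cluster passes electrons to ubiquinone, was at 30.8, 33.7 and 31.9 CPM in Blank, 24.1, 20.1 and 21.2 in Model and 25.4, 31 and 25.2 in CDs. CDs and Model did not overlap, and its log2 fold change was 0.32 ± 0.12 (edgeR adjusted p = 0.936). Cyc1 stood at 0.42 ± 0.17 and Cox4i2 at 0.95 ± 0.40, while Ndufs4, an accessory subunit of the peripheral arm of complex I, stood at 0.27 ± 0.12 and Atp5e at 0.36 ± 0.18 (edgeR adjusted p = 0.936 for each).

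When the 3 libraries with pancreatic transcripts (Model 1, Model 3 and CDs 1) were left out, 11 members were called higher in CDs than in Model and none lower, with a median log2 fold change of 0.42. In the same fit 752 of 15411 genes were called higher and 489 lower. Cyc1 was among the 11, at 0.79 (edgeR adjusted p = 0.0246). This fit rests on Model 2 alone for the Model group, assumed to vary like the other groups, and Model 2 was the lowest of its group for 22 members.

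CDs against Blank asks how far the colon of mice given both agents still differed from untreated colon. It shares the Blank libraries with Model against Blank, so the results are not independent and are set side by side. Of the 92 members, 24 were called lower and 2 higher, where 13.8% and 21.8% of all genes were, and the median log2 fold change was -0.43, beside -0.59 for Model against Blank. The CDs libraries lay wholly below Blank for 57 members and wholly above for 3, where 25.9% and 28.2% of all genes did so. Leaving out 1 library moved the 26 calls to 15 without Blank 1, 13 without Blank 2, 14 without Blank 3 and 17 without CDs 1. Over all genes the 2053 lower calls became 1299, 1074, 1240 and 1930 in the same fits. Without Blank 2 and Blank 3, which leaves Blank 1 as the only untreated library, the median was -0.36.

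All 24 members called lower in CDs were among the 60 called lower in Model, and the 2 higher, Ndufa4l2 and Cox6b2, were the same. By complex, 9 of 43 members of complex I, 5 of 10 of complex III, 3 of 20 of complex IV and 7 of 19 of complex V were called lower. Over all genes 13.8% were called lower, a share that complex IV came close to. None of the 13 mitochondrially encoded members was called (smallest adjusted p 0.0562, for mt-Co2), 3 of them had an unadjusted p under 0.05, and DESeq2 called 3. Their median log2 fold change was -0.43, and -0.20 without CDs 1. The difference between the comparisons was that of CDs against Model, which called no member.

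Of the 5 members with the smallest p, Ndufs1 stood at -0.74 ± 0.13 in CDs over Blank on the log2 scale (edgeR adjusted p = 0.00338), beside -0.94 in Model. Ndufa10 stood at -0.63 ± 0.12 (0.00452), beside -0.73, and Ndufa9 at -0.66 ± 0.13 (0.00492), beside -0.76. Uqcrc1 stood at -0.64 ± 0.13 (0.00635), beside -0.83. Ndufa4l2 stood at 1.13 ± 0.24 (edgeR adjusted p = 0.00775), beside 1.12. Cox7a1, the muscle form, stood at -1.39 ± 0.43 (edgeR adjusted p = 0.0343), beside -2.13.

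Other genes of the chain and of its assembly were also called lower in Model, beside 19.6% of all genes. All 4 subunits of complex II, which also serves the citric acid cycle, were called lower, with Sdha at -0.77 ± 0.17 and Sdhb at -0.67 ± 0.15 (edgeR adjusted p = 0.00732 and 0.00804). Of 3 further genes that the name rule missed, 2 were lower. These were the acyl carrier protein Ndufab1 (-0.60 ± 0.13, edgeR adjusted p = 0.00740) and Atpif1, the inhibitor of ATP synthase (-1.13 ± 0.29, 0.0146). The third, Cycs, which encodes cytochrome c, was not called. Assembly factors were called lower in 9 of 15 for complex I, 2 of 6 for complex III, 12 of 20 for complex IV and 4 of 4 for complex V, and none was higher. Their leading members were Ndufaf1 (-0.57 ± 0.11) and Nubpl (-0.83 ± 0.19) for complex I, Uqcc1 (-0.50 ± 0.14) and Bcs1l (-0.47 ± 0.14) for complex III, the heme-synthesis enzymes Cox10 (-0.85 ± 0.12) and Cox15 (-0.70 ± 0.14) for complex IV, and Oxa1l (-0.65 ± 0.09) and Atpaf1 (-0.46 ± 0.11) for complex V, each with an edgeR adjusted p between 0.00106 and 0.0263.

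Of the genes for transcription and upkeep of mitochondrial DNA, 5 of 14 were lower, led by the transcription factors Tfb2m (-0.61 ± 0.12, edgeR adjusted p = 0.00372) and Tfam (-0.56 ± 0.11, 0.00467). Of the regulators of mitochondrial biogenesis, 5 of 12 were lower, led by Yy1 (-0.37 ± 0.08, edgeR adjusted p = 0.00639) and Ppara (-1.51 ± 0.41, 0.0176). Nrf1 and Gabpa, whose sites were searched above, and the nuclear receptor gene Esrra did not pass the test (-0.17 ± 0.14, -0.09 ± 0.09 and -0.53 ± 0.20). Of 7 genes of uncoupling and other electron entry, 4 were lower, led by Etfdh (-0.67 ± 0.17, edgeR adjusted p = 0.0123) and Etfa (-0.55 ± 0.15, 0.0177). Of 16 carriers, pores and import genes, 6 were lower and 1 higher. The higher gene was Slc25a4, the ADP/ATP carrier of heart and muscle (1.10 ± 0.16, edgeR adjusted p = 0.00105), and Timm44 (-0.59 ± 0.10, 0.00242) led the lower ones.

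In CDs against Blank 13.8% of all genes were called lower. The same lists had 3 of 4 complex II subunits lower and 1 of 3 missed genes. Of the assembly factors of complexes I, III, IV and V, 5 of 15, 2 of 6, 7 of 20 and 2 of 4 were lower. So were 6 of 14 genes of mitochondrial DNA, 2 of 12 regulators, 2 of 7 genes of other electron entry and 2 of 16 carriers. Slc25a4 (1.04 ± 0.16, edgeR adjusted p = 0.00181) and the complex III assembly factor Uqcc2 (0.49 ± 0.16, 0.0382) were higher. No gene of these lists was called in CDs against Model.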

How the data were processed

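For every gene in each library the authors deposited whole-number read counts and FPKM values, per the file headers. The tools named in the submitters' processing notes are HTSeq 0.9.1, HISAT2 2.1.0 and fastp 0.22.0. No source used here gives the genome build, the strand setting or the treatment of reads with several matches. The deposited FPKM values equalled count over gene length and library total in 100% of values (relative tolerance 1e-06). Libraries were made from poly-A RNA, per the labels' protocols.

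Counts were tested with edgeR 4.0.16 (R 4.3.3): expression filter, TMM scaling, 1 quasi-likelihood model of the 3 groups over the 9 libraries, two-sided p-values adjusted by Benjamini and Hochberg over 14921 genes, threshold 0.05. The SE is the fold change over the square root of F. CPM values are TMM scaled, with SD over 3 libraries. Read totals of 13868864 to 19940300 limit precision for rare transcripts only, and limits for 0 reads assume 3 reads. The series description states biological replicates; p-values measure the spread between these libraries. Sums, promoter matches and sequence sharing are descriptions without a test.

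Named members were, in each complex and in the mitochondrial genome, the 3 with the smallest p and the 2 with the highest FPKM in Model against Blank, members called against the majority, the 5 with the smallest p in each other comparison, complex IV form pairs and subunit c genes, and members without reads; from other lists, the 2 with the smallest p. Other names (Ndufa2, Ndufb1, Uqcrq, Nrf1, Gabpa, Esrra, Uqcc2 and Cycs) were chosen after their values were seen. A single member is counted but not reported by name here. Members and lists were chosen with earlier results of these data known. Alternatives were DESeq2 1.42.0, other scalings, no filter, 6 libraries, a replicate block, nuclear genes only, and libraries left out. Each was fitted and adjusted over all of its tested genes and was not read out for the other lists.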

Additional observations from a re-analysis of the deposited data

How the results depend on the processing

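In Model against Blank the 62 calls became 24 to 77 when 1 library was left out. Over all genes 1478 to 3561 were called lower in these fits, beside 2920 in the full fit. The median log2 fold change was -0.51 without Blank 2 and Blank 3, which leaves 1 Blank library. It was -0.73 without Model 1, Model 3 and CDs 1, which leaves 1 Model library. DESeq2 gave 69 calls, DESeq2 size factors 62, total counts 58, no filter 60 and a fit of 6 libraries 69. In CDs against Model the count of 0 became 11 without Model 1, Model 3 and CDs 1 and stayed 0 in every fit without 1 library. In CDs against Blank the 26 calls became 13 to 31 without 1 library, where 1074 to 2229 of all genes were called lower. The median log2 fold change was -0.36 without Blank 2 and Blank 3. The fold change of Cox4i2 in Model against Blank, which passed no test, turned from 0.08 to -0.20 without Blank 1 and to -0.32 without Model 2, and its highest value was 0.25, without Blank 3. With the replicate number as a block, Model against Blank gave 38 calls and CDs against Blank 18. Same-numbered libraries correlated between -0.37 and 0.18 in their deviations from the group means, and libraries with different numbers between -0.33 and 0.44. With group means of only 3 libraries, these values cannot show whether same-numbered libraries shared a cage, day or batch. The cause of these shifts was not tested; the fits without libraries also have fewer samples. With 3 libraries a group, modest changes lie close to the threshold, and depth limits only the forms near 0 reads.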
